A study of Mus musculus with 7 samples.

Results

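The syndecans, the hyaluronan receptor CD44 and a set of their matrix ligands were followed in tumour-associated macrophages from mouse glioma. The set holds 8 genes, Sdc1, Sdc3, Sdc4, Cd44, Spp1, Fn1, Thbs1 and Tgfbi, of 55385 genes in the count tables. The genes were chosen by name with the hairpin difference of the same libraries known, in which Sdc1 stood higher and Sdc4 lower in shChi3l1. For that reason the hairpin differences of the 8 genes are given below as descriptions, without a test. All 8 passed the low-count filter, as did 15448 genes in all. Macrophages were sorted by flow cytometry from tumours formed in the brain of C57BL/6 mice by injected QPP7 glioma cells. In 3 libraries the injected cells carried a hairpin against Chi3l1 (shChi3l1), and in 4 they carried a control hairpin (shSC). The protein targeted, chitinase-3-like-1, is secreted. The hairpin was a property of the tumour cells, not of the sorted macrophages, and the labels do not say how many hairpin sequences or clones were used. Mouse age is not given there, and neither is a statement that each library came from its own mouse, so the spread between libraries may be partly technical.

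Syndecans are transmembrane proteoglycans whose extracellular part carries heparan sulfate chains. Through these chains they bind growth factors, chemokines and matrix proteins such as fibronectin, and they act together with integrins. Their ectodomains are shed by metalloproteinases, and their short cytoplasmic tails bind the PDZ protein syntenin. CD44 binds hyaluronan and also osteopontin, and it is abundant on monocytes and macrophages that have entered inflamed tissue. Syndecan-1 and CD44 have both been described elsewhere as partners of chitinase-3-like-1 on other cells. Syndecan-1 is also the CD138 antigen of plasma cells. Of the ligands, osteopontin (Spp1), fibronectin (Fn1), thrombospondin-1 (Thbs1) and the TGF-beta-induced protein (Tgfbi) are secreted matrix proteins with integrin binding sites, and macrophages in tumours can make all of them.

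The sequences upstream of Sdc1, Sdc4 and Spp1 are shown because Sdc1 and Sdc4 are the pair whose opposite differences led to the list, and Spp1 is the ligand in which 1 control library stood far above the other 3. The RefSeq table held a promoter for 6 of the 8 genes. Bases are from RefSeq on GRCm38.p6, the mm10 assembly, 5′ to 3′ on the strand of the gene, and they end before the start site or at the first exon of the gene. Capitals mark the GC box GGGCGG, the TATA box TATAAA and the PU.1 motif GAGGAAGT on either strand. PU.1 is the lineage transcription factor of macrophages. The Sdc1 sequence is chr12:8771146-8771322 on the plus strand, that of Sdc4 is chr2:164443189-164443438 on the minus strand, and that of Spp1 is chr5:104434861-104435110 on the plus strand. The Sdc4 bases lie upstream of its RefSeq start site and in the first intron of a longer GENCODE transcript.
Sdc1: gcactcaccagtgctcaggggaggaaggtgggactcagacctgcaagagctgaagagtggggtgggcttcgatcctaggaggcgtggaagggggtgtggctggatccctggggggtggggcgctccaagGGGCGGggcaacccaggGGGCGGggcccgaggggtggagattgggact
Sdc4: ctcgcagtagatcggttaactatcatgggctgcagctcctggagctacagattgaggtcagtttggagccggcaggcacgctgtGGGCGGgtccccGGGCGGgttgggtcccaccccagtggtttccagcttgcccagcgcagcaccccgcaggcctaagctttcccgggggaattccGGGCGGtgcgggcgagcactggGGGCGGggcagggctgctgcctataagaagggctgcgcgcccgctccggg
Spp1: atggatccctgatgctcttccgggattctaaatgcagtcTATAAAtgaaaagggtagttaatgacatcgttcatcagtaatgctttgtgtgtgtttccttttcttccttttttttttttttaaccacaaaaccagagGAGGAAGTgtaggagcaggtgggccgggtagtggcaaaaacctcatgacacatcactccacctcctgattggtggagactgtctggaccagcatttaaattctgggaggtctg
GC boxes were found 4 times in the 250 bases before the Sdc4 start site and 3 times before that of Sdc1, of which 2 lie in the bases shown. No GC box was found upstream of Spp1. The upstream 250 bases of 32.7% of all 32851 RefSeq promoters hold a GC box. The Spp1 sequence holds 1 PU.1 motif and 1 TATA box, found in 2.44% and 12.4% of all promoters. The TATAAA run of Spp1 begins 211 bases before the start site. Neither motif was found before Sdc1 or Sdc4. The search took exact letters, so a near variant such as the tataag close to the end of the Sdc4 bases was not counted. The AP-1 motif TGANTCA, in 6.75% of promoters, was found in none of the 3. A match is a run of letters and shows no binding. GC content of these 250 bases was 66% before Sdc1, 68% before Sdc4 and 43.6% before Spp1, and the median promoter had 52.4%.

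Depth and purity bear on every value that follows. Reads assigned to genes numbered 23174989 to 36502664 per shChi3l1 library and 19169129 to 32590781 per shSC library. Each of the 12 macrophage markers examined was detected, led by the lysozyme gene Lyz2 at 15680 to 33970 CPM in shChi3l1 and 10460 to 22120 CPM in shSC libraries. CPM are the reads of a gene relative to all reads of its library, with TMM scaling. The macrophage markers did not move together. In shChi3l1 1 Csf1r, Adgre1, Mertk and Cd68 were lowest of the 7 libraries, at 248.8, 172.9, 13.9 and 610.4 CPM. Aif1, C1qa and C1qb were highest there, at 1542, 4522 and 9705 CPM. Sdc3, Cd44, Fn1 and Tgfbi were also lowest in that library, and the part of this split in their levels was not tested. Chi3l1 itself, listed as Chil1 in the annotation, had 7 to 31 reads in shChi3l1 and 18 to 28 reads in shSC libraries. No gene of the 15448 tested passed an adjusted p of 0.05 in edgeR's quasi-likelihood test, which had 229 genes at an unadjusted p under 0.05. Limma's voom with quality weights called 0, with 701 at that level. DESeq2 had 350 and called 1 gene, Igkv4-58, with 60, 42 and 35 reads in shChi3l1 and 0 reads in each shSC library. It was named after its values were seen and belongs to a family of similar immunoglobulin segments, among which reads may be split.

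Sdc1 stood higher in macrophages from shChi3l1 tumours and showed that direction in each same-numbered pair. Sdc1 (ENSMUSG00000020592.14, mm10 chromosome 12, 8771323 to 8793715) had 20.98, 51.8 and 27.3 CPM in shChi3l1 libraries 1 to 3, against 3.26, 22.7, 13.3 and 13.7 CPM in shSC libraries 1 to 4. Libraries 2 and 3 of shChi3l1 lay above every shSC library, and shChi3l1 1 lay just below shSC 2, so the groups overlapped. The fitted log2 fold change was 1.33 (SE 0.59), a fold of 2.51. Within the pairs that share a replicate number the log2 ratios were 2.68, 1.19 and 1.03. The first of these rests on shSC 1, where Sdc1 had 92 reads against 319 to 805 in the other shSC libraries. Without shSC 1 the fitted value was 0.98, without shChi3l1 2 it was 0.86, and it stayed above 0 in all 17 alternatives. The pairs and alternatives reuse the libraries in which this direction was first seen, so they describe it and do not test it.

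Sdc4 stood lower, and this rested on fewer libraries. Sdc4 encodes the syndecan of focal adhesions, which binds fibronectin together with integrins. Sdc4 (ENSMUSG00000017009.3, chromosome 2, 164424247 to 164443887) had 185.5, 180.7 and 127.9 CPM in shChi3l1 libraries, against 336.5, 172.3, 116.6 and 453.2 CPM in shSC libraries. The 3 shChi3l1 values lay inside the shSC range, and the high values were those of shSC 1 and shSC 4. The log2 fold change was -0.71 (SE 0.49). Pair 1 gave -0.86, while pairs 2 and 3 gave 0.07 and 0.13. Without shSC 4 the fitted value was -0.34, and with the replicate number as a block it was -0.22 (SE 0.27).

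Sdc3, a syndecan known best from the nervous system and also made by macrophages, had a fitted difference of the same sign as Sdc1. Sdc3 (ENSMUSG00000025743.14, chromosome 4, 130792537 to 130826319) had 28.2, 192.4 and 107.4 CPM in shChi3l1 libraries, against 31.6, 80.7, 47.5 and 59.1 CPM in shSC libraries. The shChi3l1 group held both the highest and the lowest library of the 7. The log2 fold change was 1.00 (SE 0.58), and it was 0.30 without shChi3l1 2. Genes on the opposite strand share 7.73% of the Sdc3 exon bases, and the counts cannot separate their reads. The fourth syndecan gene, Sdc2, was not among the 8. It had 14.3, 22.5 and 9.27 CPM in shChi3l1 and 2.30, 14.6, 13.7 and 6.36 CPM in shSC libraries (log2 fold change 0.73, SE 0.61, edgeR adjusted p = 0.9998).

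**Figure D1:**
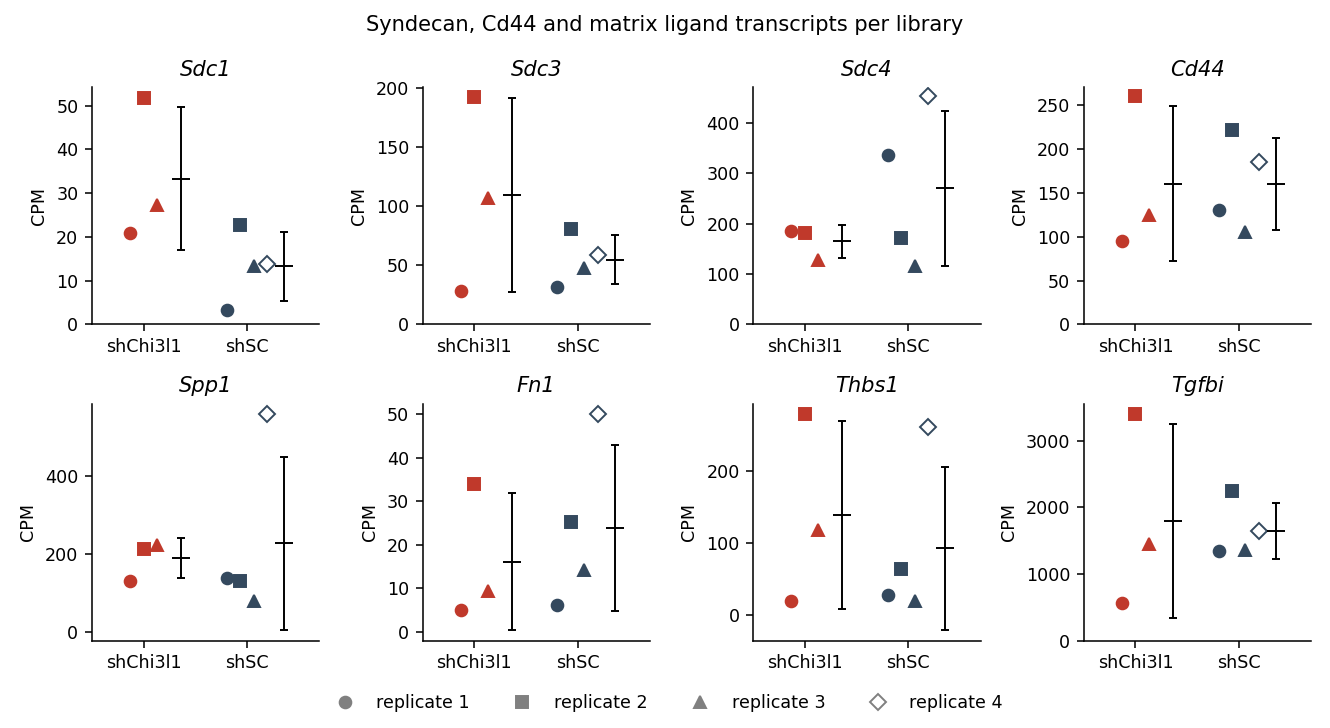
Each panel plots TMM-scaled CPM of 1 gene on a linear axis, with shChi3l1 libraries in red and shSC libraries in dark blue, 1 symbol for each replicate number, and a bar for mean ± SD (n = 3 and 4). The groups overlap in all 8 panels, and shSC 4 stands alone at 557.3 CPM for Spp1.

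Cd44 had nearly the same level in both groups. Cd44 (ENSMUSG00000005087.17, chromosome 2, 102811141 to 102901665) had 95.4, 261.3 and 125.2 CPM in shChi3l1 libraries, against 130.7, 221.5, 105.4 and 185.4 CPM in shSC libraries. Group means were 160.6 ± 88.4 CPM over the 3 shChi3l1 and 160.7 ± 52.5 CPM over the 4 shSC libraries (SD), and the fit put their log2 ratio at 0.00 (SE 0.44). Without shChi3l1 2 the log2 fold change was -0.55. The tables count reads per gene, so the variant exons of Cd44, which differ in ligand binding, are not resolved.

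The ligands gave no common direction. Tgfbi, which encodes a matrix protein induced by TGF-beta and is a known transcript of monocyte-derived macrophages, was the most abundant of the 8. Tgfbi (ENSMUSG00000035493.10, chromosome 13, 56609523 to 56639562) had 560.9, 3404 and 1446 CPM in shChi3l1 libraries, against 1353, 2243, 1361 and 1648 CPM in shSC libraries. The highest and the lowest library were both shChi3l1, and the log2 fold change of 0.13 (SE 0.56) became -0.72 without shChi3l1 2.

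Spp1, the osteopontin gene, turned on 1 control library. Spp1 (ENSMUSG00000029304.14, chromosome 5, 104435118 to 104441050) had 131.9, 213.6 and 223.9 CPM in shChi3l1 libraries, against 139.7, 130.8, 79.6 and 557.3 CPM in shSC libraries. Its log2 fold change of -0.26 (SE 0.65) became 0.70 without shSC 4. Pairs 1 to 3 gave log2 ratios of -0.08, 0.71 and 1.49. With the replicate block, which leaves out shSC 4, it was also 0.70 (SE 0.33). A gene model on the same strand shares 18.8% of the Spp1 exon bases.

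Thbs1 was the most variable of the 8. It encodes thrombospondin-1, a ligand of CD47, CD36 and heparan sulfate that platelets also store. Thbs1 (ENSMUSG00000040152.8, chromosome 2, 118111876 to 118127133) had 19.4, 278.3 and 117.2 CPM in shChi3l1 libraries, against 26.7, 63.1, 18.8 and 260.3 CPM in shSC libraries. Each group held low and high libraries, and the log2 fold change of 0.59 had a standard error of 1.00. It was -0.43 without shChi3l1 2 and 1.93 without shSC 4.

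Fn1, the fibronectin gene, was the least abundant per length. Fn1 (ENSMUSG00000026193.15, chromosome 1, 71585520 to 71653200) had 4.89, 34.0 and 9.23 CPM in shChi3l1 libraries, against 6.03, 25.2, 14.1 and 49.97 CPM in shSC libraries. The log2 fold change of -0.57 (SE 0.80) was -1.75 without shChi3l1 2 and 0.08 without shSC 4.

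Across the set 0 of 8 genes passed the adjusted threshold, where 0% of all tested genes did. The groups were free of overlap in 0 of 8, against 2.49% of all tested genes. The hairpin contrast itself led to the list, so nothing is read from these counts. The fitted value was above 0 in Sdc1, Sdc3, Thbs1 and Tgfbi, below 0 in Sdc4, Spp1 and Fn1, and 0.00 for Cd44. The sign held in all 17 alternatives for the 3 syndecans. It turned in 1 for Thbs1, 2 for Fn1, 4 for Tgfbi and 5 for Spp1. The alternatives refit the same libraries whose Sdc1 and Sdc4 directions led to the list, so a held sign adds no support.

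**Figure D2:**
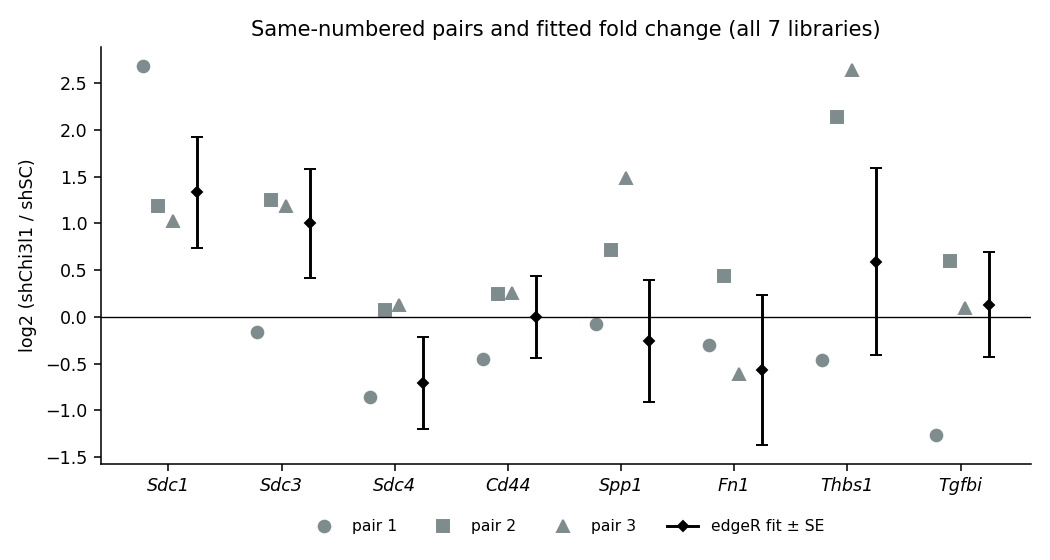
Grey symbols give the log2 ratio of shChi3l1 to shSC within each same-numbered pair, and black diamonds give edgeR's fitted log2 fold change over all 7 libraries with its SE. Sdc1 lies above 0 in all 3 pairs, at 1.03 to 2.68, whereas Sdc4 lies at -0.86 in pair 1 and at 0.07 and 0.13 in pairs 2 and 3.

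Levels of different genes were compared as TPM, in which reads are divided by exon length before scaling to the library. Tgfbi had 992 ± 872 TPM (SD, n = 3) in shChi3l1 and 991 ± 366 TPM (SD, n = 4) in shSC libraries, and it exceeded Spp1 in every library. Spp1 followed, with 228 ± 102 TPM (SD, n = 3) in shChi3l1 and 328 ± 361 TPM (SD, n = 4) in shSC libraries. Sdc4 came next, with 121 ± 27.0 TPM (SD, n = 3) against 237 ± 155 TPM (SD, n = 4), below Spp1 in 3 of 3 shChi3l1 and 3 of 4 shSC libraries. Cd44 and Thbs1 did not separate from each other beyond their spread, at 47.5 ± 32.0 and 48.2 ± 47.1 TPM (SD, n = 3) in shChi3l1 and 54.1 ± 24.1 and 37.3 ± 49.0 TPM (SD, n = 4) in shSC libraries. Nor did Thbs1 and Sdc3 in shSC libraries, where Thbs1 was the higher in 1 of 4. Sdc1 had 17.5 ± 10.8 TPM (SD, n = 3) against 8.19 ± 5.35 TPM (SD, n = 4), and Fn1 closed the order at 2.85 ± 2.99 TPM (SD, n = 3) against 4.92 ± 4.40 TPM (SD, n = 4), below Sdc1 in 3 of 3 and 3 of 4 libraries. Exon length here joins all annotated isoforms, so genes with many of them, such as Fn1 and Cd44, are understated in TPM.

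Sdc4 supplied most syndecan transcripts in every library. It made up 83.6%, 57.7% and 64.4% of the TPM of the 4 syndecan genes in shChi3l1 libraries, against 95.1%, 74.2%, 74.9% and 92.1% in shSC libraries. The Sdc1 share was 6.33%, 11.0% and 9.19% in shChi3l1 and 0.617%, 6.54%, 5.73% and 1.86% in shSC libraries. Sdc4 transcripts outnumbered those of Sdc1 by 13.2, 5.22 and 7.01 times in shChi3l1 and by 154, 11.3, 13.1 and 49.4 times in shSC libraries. The groups overlapped in all of these measures, and the widest ratios were those of shSC 1 and shSC 4. Whether macrophages that carry a given syndecan were fewer, or each held less of its RNA, cannot be told apart in such pooled cells.

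**Figure D3:**
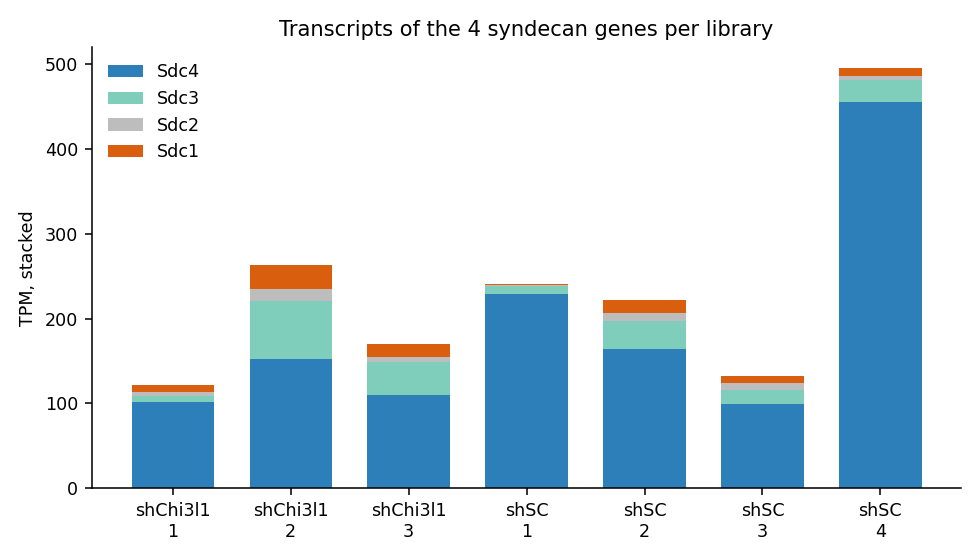
Bars stack the TPM of Sdc4, Sdc3, Sdc2 and Sdc1 for each of the 7 libraries, shChi3l1 on the left. Sdc4 makes up 57.7% to 95.1% of the stack, and the total runs from 122 TPM in shChi3l1 1 to 495 TPM in shSC 4.

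The next question was how the 8 genes varied between libraries of the same group, a measure that the hairpin contrast does not enter. The within-group SD of log2 CPM was 1.80 for Thbs1, higher than in 91.3% of tested genes. It was 1.35 for Fn1, 1.02 for Sdc1, 1.00 for Sdc3, 0.97 for Spp1, 0.86 for Tgfbi, 0.72 for Sdc4 and 0.61 for Cd44, and the median over all tested genes was 0.73. Deviations from the group means were then correlated over the 7 libraries for the 28 pairs of genes, with libraries permuted within groups. The correlation was above 0 in 25 pairs, and all 3 negative ones involved Sdc4, with Sdc1 (r = -0.35), Sdc3 (r = -0.16) and Tgfbi (r = -0.04).

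The closest pair was Sdc3 and Tgfbi, which took the same order of deviations in all 7 libraries. Pearson's r was 0.959 and Spearman's rho 1, each with an exact permutation p of 0.00694, the smallest that 144 permutations allow. Without the 2 libraries farthest from the Sdc3 median r was 0.867. Cd44 and Tgfbi had r = 0.889 and rho = 0.929, both with an exact permutation p of 0.0278. Spp1 and Thbs1 had r = 0.832 (exact permutation p = 0.0278) and rho = 0.893 (exact permutation p = 0.0347). Without the 2 farthest libraries r was 0.677 and 0.788. Sdc1 and Sdc3 had r = 0.713 (exact permutation p = 0.0208) and rho = 0.821 (exact permutation p = 0.0417), and r was 0.529 without the 2 farthest. Adjusted over the 28 pairs, the exact permutation p of these 4 was 0.178 for r and 0.150 for rho, so none passed. A single pair at the smallest possible p could not have passed over 28 pairs, so this outcome says little about any 1 pair. In all, 7 pairs lay under an unadjusted p of 0.05 and 0 under the adjusted one. Each replicate number holds 1 library per hairpin, so no correlation can be had within a number.

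Long genes moved with this pattern. The share of reads in genes of more than 5000 exon bases was 12.6%, 20.7% and 18.6% in shChi3l1 libraries, against 14.8%, 19.9%, 16.8% and 19.8% in shSC libraries. It was lowest in the libraries numbered 1 and highest in those numbered 2, and so were Sdc1, Sdc3 and Tgfbi in both groups. Thbs1, Cd44, Sdc3 and Fn1 exceed that length. When each library's trend with gene length was removed, an alternative chosen after seeing the data, r was 0.961 for Sdc3 and Tgfbi, 0.687 for Cd44 and Tgfbi, 0.94 for Spp1 and Thbs1 and 0.541 for Sdc1 and Sdc3. The number of pairs under an unadjusted exact permutation p of 0.05 was then 2, and 0 passed after adjustment. These were Spp1 with Thbs1 (exact permutation p = 0.0139) and Fn1 with Thbs1 (exact permutation p = 0.0417). Sdc3 and Tgfbi were not among them (exact permutation p = 0.0556). In the hairpin fit with length offsets Sdc1 stood at 1.35 (SE 0.51) and Sdc4 at -0.75 (SE 0.52).

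**Figure D4:**
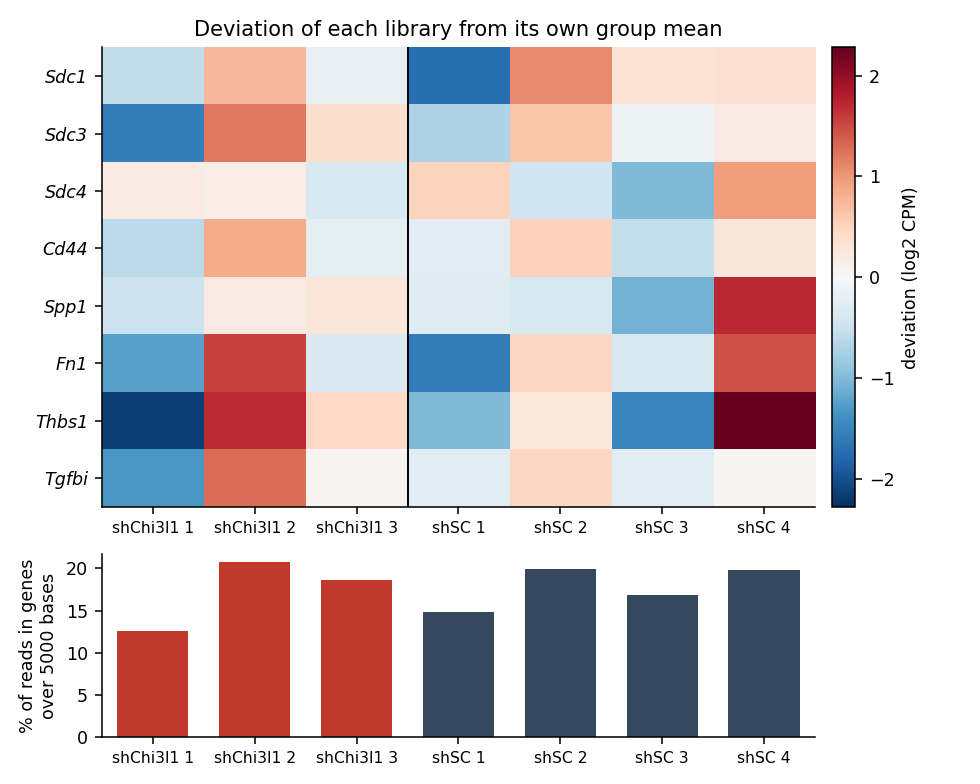
The upper panel colours the deviation of log2 CPM of the 8 genes from the mean of the library's own group (red above, blue below), shChi3l1 libraries left of the line. The lower panel gives the percent of reads in genes over 5000 exon bases. shChi3l1 1 is blue in 7 of the 8 rows and has the lowest share, 12.6%, and Sdc4 is the row that departs from the rest.

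Markers of other cells that make these proteins were summed for each library. Plasma-cell markers other than Sdc1, led by the light-chain gene Igkc, reached at least 1 CPM somewhere in 10 of 10 cases and summed to 970.4, 281.2 and 9813 CPM in shChi3l1 libraries, against 261, 531.8, 2154 and 233.7 CPM in shSC libraries. Sdc1 was highest in shChi3l1 2, which had less of these markers than the other shChi3l1 libraries. In that library Igkc was lowest of the 7, at 42.7 CPM, and Jchain had 1.84 CPM. Eaf2 was also lowest of the 7 there, at 0.059 CPM. Mzb1, Derl3 and Pou2af1 were near the low end, at 0.565, 1.87 and 0.654 CPM, and reached 20.6, 13.6 and 18.1 CPM elsewhere. The remaining markers of the list were not low there. Ighm had 125.6 CPM, against 62.9 to 1526 CPM in the other libraries. Irf4 had 6.33 CPM, against 2.37 to 7.71 CPM in the other libraries, and Tnfrsf17 had 0.98 CPM, against 0.043 to 2.44 CPM. Prdm1, a regulator of plasma cells that macrophages also express, was highest there, at 100.6 CPM, and the part of such cells in the Sdc1 level was not tested. Platelet markers, led by Pf4 (5 of 8 reached 1 CPM), summed to 49.2, 11.1 and 14.5 CPM in shChi3l1 libraries and to 48.1, 36.2, 21.2 and 194 CPM in shSC libraries. In shSC 4 the other 7 markers came to 2.79 CPM, so the sum there is almost entirely Pf4. Tumour and glial markers, led by Dbi (12 of 12), summed to 509.4, 136 and 136 CPM in shChi3l1 and to 405.2, 207.3, 208.1 and 966.1 CPM in shSC libraries. Dbi made up most of these sums. The other 11 markers came to 105.2, 47.9 and 41.8 CPM in shChi3l1 and to 48.9, 78.3, 54.0 and 350 CPM in shSC libraries. Fibroblast and pericyte markers, led by Acta2 (7 of 10), reached 26.3 CPM in shChi3l1 and 42.6 CPM in shSC libraries, and Col1a1 was at 0 in 5 of 7. All 3 sums were highest in shSC 4, the library highest in Spp1, Sdc4 and Fn1, and their part in those levels was not tested. The fibroblast and pericyte sum there came mostly from Cspg4, at 15.26 CPM, and Pdgfra, at 10.96 CPM. Acta2 and Rgs5 were higher in shChi3l1 3, at 10.65 and 9.55 CPM, than in shSC 4, at 8.04 and 4.00 CPM. Of 5 markers of this list outside the pathway lists, Acta2 left out, 1 was highest in shSC 4.

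Of the further lists, endothelial markers led by Cldn5 summed to 27.2 to 117.5 CPM in shChi3l1 and 27.4 to 82.5 CPM in shSC libraries. Markers of monocyte-derived macrophages other than Tgfbi, led by Plac8, summed to 3470, 1267 and 1094 CPM in shChi3l1, against 2237, 1047, 1470 and 596.9 CPM in shSC libraries. Plac8 made up most of the sum in shChi3l1 1, at 2394 CPM. Ccr2 was lower there, at 60.6 CPM, than in the other 6 libraries, whereas S100a4 was highest there, at 82.3 CPM. A sum of 6 of these markers, without Plac8 and genes of the pathway lists, was 1064 CPM there and 308.5 to 1117 CPM in the others. Tgfbi was lowest in shChi3l1 1, and the part of monocyte-derived cells in its level was not tested. A set of 8 microglia markers, among them Tmem119, Cx3cr1 and P2ry12, summed to 640, 1330 and 3275 CPM in shChi3l1, against 828.5, 871.2, 759.3 and 461.2 CPM in shSC libraries, and 8 of 8 were highest in shChi3l1 3. Epithelial markers led by Cdh1 stayed at or below 23.1 CPM in shChi3l1 and 18.9 CPM in shSC libraries, with Krt5, Krt14 and Cldn4 at 0 in every library. Those of B cells, led by Cd79a, summed to 26.6 to 302.8 CPM in shChi3l1 and 18.7 to 191.3 CPM in shSC libraries. T-cell and NK-cell markers, led by Gzma, summed to 135.9 to 1469 CPM and 155.5 to 1125 CPM, and neutrophil markers, led by Csf3r, to 88.4 to 148.1 CPM and 45.5 to 126.7 CPM. Without Csf3r the neutrophil markers came to 73.9, 8.88 and 5.81 CPM in shChi3l1 and to 13.4 to 36.9 CPM in shSC libraries.

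The genes around these receptors were examined in 7 lists of 108 genes, of which 92 were tested. In edgeR's quasi-likelihood test 0 of the 92 passed the adjusted threshold in either direction, the background being 0%. One list gene, Sparc, was under an unadjusted p of 0.05, and 0 passed in DESeq2, in limma's voom or in any other alternative. Fitted values were above 0 in 71 of the 92, or 77.2%, beside 57.6% of all tested genes, whose median log2 fold change was 0.07.

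Enzymes that build and trim heparan sulfate had fitted values above 0 in 21 of 23, with a median of 0.30. Hpse, which encodes heparanase, the enzyme that cleaves heparan sulfate chains, had 133.4, 257.4 and 109.4 CPM in shChi3l1 libraries, against 133.6, 127.3, 99.4 and 58.5 CPM in shSC libraries. Its log2 fold change was 0.67 (SE 0.42, edgeR adjusted p = 0.9998). Fam20b, the xylose kinase of the glycan linker, was at 0.68 (SE 0.40). Libraries of the groups overlapped for both.

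Cytoplasmic partners of the syndecans had values above 0 in 9 of 10, with a median of 0.19. Arf6, a small GTPase of syndecan recycling with 14.3% of its exon bases shared with an antisense gene model, had 35.1, 34.4 and 26.4 CPM in shChi3l1, against 26.3, 24.0, 25.7 and 16.4 CPM in shSC libraries. Its groups did not overlap, as in 1.24% of all tested genes that were higher, and its log2 fold change was 0.47 (SE 0.31, edgeR adjusted p = 0.9998). Rac1 was at 0.55 (SE 0.32), but another gene shares 51.4% of its exon bases.

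Integrins and other receptors of the ligands had values above 0 in 11 of 13, with a median of 0.25 that became -0.19 without shChi3l1 2. Cd36, a thrombospondin receptor and fatty acid transporter, had 68.4, 95.2 and 44.8 CPM in shChi3l1 and 259.5, 87.7, 62.4 and 108.6 CPM in shSC libraries (log2 fold change -0.90, SE 0.53, edgeR adjusted p = 0.9998). Itgam was at 0.90 (SE 0.62), with 68.7% of its exon bases shared with another gene model. Sheddases and their regulators had 9 of 11 above 0 and a median of 0.34, which became -0.20 without shChi3l1 2. Mmp2, a gelatinase that can cleave syndecan ectodomains, had 69.6, 523.1 and 180.5 CPM in shChi3l1 and 37.9, 279.1, 111.2 and 110.8 CPM in shSC libraries, with a fitted value of 0.94 (SE 0.75). Adam10, a sheddase of CD44, was at 0.48 (SE 0.46).

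The other 3 lists were more evenly divided, and their medians fell below 0 in some alternatives. Hyaluronan and CD44 partners had 7 of 12 above 0 and a median of 0.09. Within them Tnfaip6, a hyaluronan-binding secreted protein gene, was at 0.72 (SE 0.52) and Cd74, which encodes the MIF receptor that signals with CD44, at 0.43 (SE 0.52). The hyaluronan synthase genes Has1, Has2 and Has3 did not pass the low-count filter. Other proteoglycans had 8 of 13 above 0 and a median of 0.03, with Nrp1 at 0.25 (SE 0.71). Other matrix ligands had 6 of 10 above 0 and a median of 0.14. Sparc, a matricellular gene that microglia also express, had 33.3, 127.3 and 445 CPM in shChi3l1 and 22.4, 37.6, 72.6 and 54.4 CPM in shSC libraries, with a fitted value of 2.11 (SE 0.75, edgeR adjusted p = 0.9998). Its highest value fell in shChi3l1 3, the library highest in the 8 microglia markers, at 3275 CPM, and in endothelial markers, and their part in it was not tested. Vwf, the von Willebrand factor gene, was at 0.84 (SE 0.51).

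**Figure D5:**
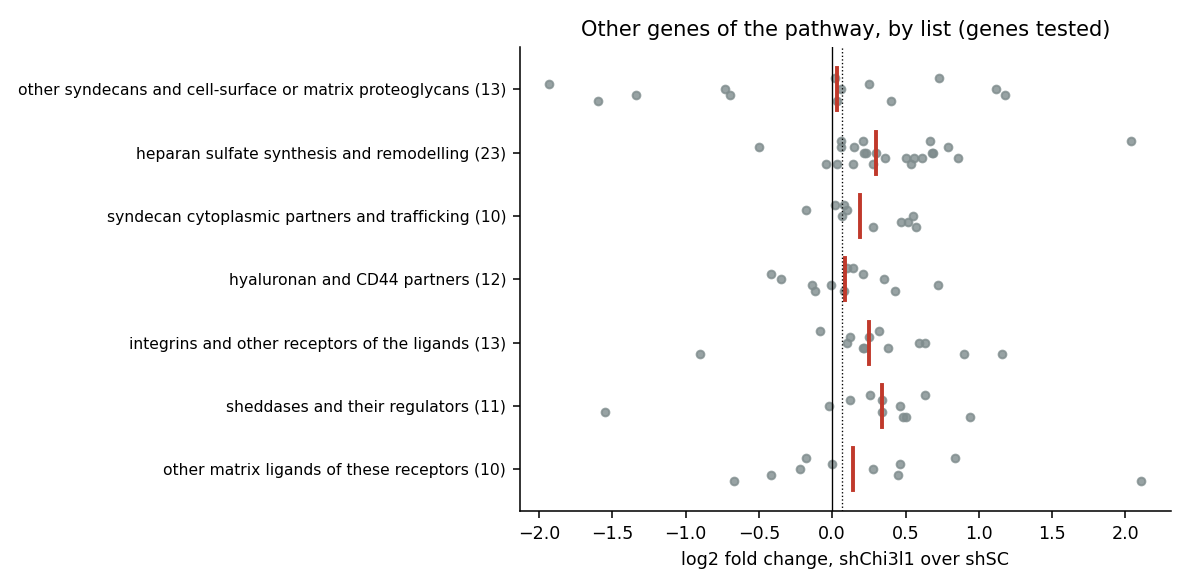
Each grey point is the fitted log2 fold change (shChi3l1 over shSC) of 1 tested gene, red bars are list medians, and the dotted line is the median of all tested genes, 0.07. The heparan sulfate list has 21 of 23 points above 0, and no point passed the adjusted threshold.

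Finally, the genes most like Sdc1 and Sdc4 in level over the 7 libraries were sought among 8833 others. For Sdc1 these were Vegfa (r = 0.966, rho = 0.964), Ssh1 (r = 0.956, rho = 0.964) and Dusp18 (r = 0.954, rho = 0.964). Without the 2 libraries farthest from the Sdc1 median r was 0.732, 0.885 and 0.770. Vegfa, the vascular endothelial growth factor gene, ranged from 34.9 to 357.7 CPM and had a log2 fold change of 1.25. For Sdc4 they were Adk (r = 0.973, rho = 0.964), Ttl (r = 0.945, rho = 0.821) and Stub1 (r = 0.941, rho = 0.964), and without the 2 farthest libraries r was 0.765, 0.517 and 0.711. Adk, which encodes adenosine kinase, ranged from 9.72 to 36.03 CPM. These genes were chosen for their likeness, so no p is given, and all values share the same 7 libraries and their scaling.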

How the data were processed

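Each library has 1 table of whole-number counts, which the authors deposited with the exon coordinates and length of every gene. The submitters' processing notes list Trim Galore, HISAT2, featureCounts and mm10, without versions or settings. Per the labels' protocols, tumours grew from 100000 injected cells and were digested for 15 min at 37 °C. A low-input SMART-Seq kit then turned 10 ng of RNA into cDNA, of which 1 ng entered Nextera XT. Neither step marks strand. Low input and amplification add noise beyond counting error.

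Of 55385 IDs, 55144 matched GENCODE M21 with the version removed, and IDs without a symbol held under 0.002% of reads. After filterByExpr (minimum count 10) and TMM scaling, edgeR 4.0.16 in R 4.3.3 fitted hairpin as the only term. Its quasi-likelihood F test was adjusted by Benjamini-Hochberg over 15448 genes, and SEs were derived from F. Before logarithms 0.5 was added to counts. TPM used the deposited lengths and no TMM factor. The 2 most similar libraries still differed by a chi-square of 161 per gene, so all 7 were kept apart. The fit was run on simulated data with the means, library sizes and dispersions of these libraries, in which 50 genes were changed at each fold. It called 4% of 2-fold, 24% of 4-fold, 86% of 8-fold and 98% of 16-fold changes, with 10 false calls. A count of 0 called genes therefore says little about changes of 2 to 4 times. The labels pair libraries 1 to 3 of both groups for a figure, and deviations from group means correlated over genes at 0.306, 0.26 and 0.188 within these pairs, each above the limit of 0.1. Of the libraries with unlike numbers, shChi3l1 3 with shSC 2 reached 0.322 and shChi3l1 2 with shSC 4 reached 0.2. The rest of the unlike numbers ran from -0.479 to 0.0273. The same-numbered values were thus all positive, but an unlike one exceeded each of them, so these values do not settle whether the pairing is real. Alternatives used DESeq2 1.42.0, limma 3.58.1, other scaling and filters, length offsets (loess, span 0.5), each library left out and the replicate block.

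The members, lists and tests were chosen with earlier results of these data known. Besides the 8 members and Sdc2, the text names the 2 members of smallest p in each list, if their log2 CPM averaged 2 or more, the most abundant member of each marker list and the 3 genes most like Sdc1 and Sdc4. Chi3l1 is named as the target of the hairpin. The hyaluronan synthase genes, Jchain, Prdm1, Irf4, Tnfrsf17, Ccr2, S100a4 and the 3 microglia markers were named after their values were seen. So were Cspg4, Pdgfra, Rgs5, Col1a1, Krt5, Krt14 and Cldn4. The same holds for Eaf2, Mzb1, Derl3, Pou2af1 and Ighm, and for the macrophage markers Csf1r, Adgre1, Mertk, Cd68, Aif1, C1qa and C1qb. The microglia sum leaves out Sparc, which is in a pathway list, and 1 marker that is not reported here.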

Additional observations from a re-analysis of the deposited data

Results flagged for a closer look

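In the 4 shSC libraries the Spp1 level of 557.3 CPM in shSC 4 stood far from the other 3, which lay between 79.6 and 139.7 CPM. The gap to the nearest library was 0.874 of the whole range in CPM, above Dixon's critical value of 0.829. In log2 CPM shSC 4 had 9.12 and the other 3 had 6.32 to 7.13, a smaller gap relative to the range. The rule assumes a normal spread and was not applied on that scale. In the same library Vwf, at 5.85 CPM, stood apart from 3.90 to 4.08 CPM in the other 3 (0.907 of the range). Of 28 genes examined in this way chance alone would mark about 5%, and the marks on Spp1 and Vwf are close to that share. Tumour and glial markers and platelet markers (almost entirely Pf4) were also highest in shSC 4, at 966.1 and 194 CPM. The sum of fibroblast and pericyte markers was highest there too, at 42.6 CPM, but came mostly from Cspg4 and Pdgfra. Acta2 and Rgs5 of that list were higher in shChi3l1 3 than in shSC 4, and Col1a1 had 0.43 CPM in shSC 4. The part of all these markers in the Spp1 and Vwf levels was not tested.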

How the results depend on the processing

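Of the 17 alternatives to the hairpin comparison, 16 called 0 genes, and DESeq2's Wald test called 1. The number of genes at an unadjusted p under 0.05, 229 in edgeR's test, ran from 143 without shSC 4 to 927 with no low-count filter. The replicate block changed no call. It moved Sdc1 to 1.61 (SE 0.39), Sdc3 to 0.77 and Thbs1 to 1.51, and the labels state no shared day or litter for the pairs. The log2 fold changes of the 8 genes moved by less than 1 within-group SD in 135 of 136 refits. The exception was Spp1, which stood at 0.77 with gene length offsets and the replicate block together. Leaving out 1 library gave ranges of 0.86 to 1.72 for Sdc1, 0.30 to 1.43 for Sdc3, -1.04 to -0.34 for Sdc4 and -0.55 to 0.23 for Cd44. The ranges were -0.61 to 0.70 for Spp1, -1.75 to 0.08 for Fn1, -0.43 to 1.93 for Thbs1 and -0.72 to 0.52 for Tgfbi. The correlation of Cd44 and Tgfbi, 0.889 both with and without removal of group means, had an adjusted exact permutation p of 0.0278 when the means were left in. List medians moved by less than the spread between libraries in all 119 refits. The medians of heparan sulfate enzymes and of cytoplasmic partners stayed above 0 in each. Those of other proteoglycans reached -0.25, of hyaluronan and CD44 partners -0.15, of integrins and receptors -0.19, of sheddases -0.20 and of other matrix ligands -0.35 when 1 library was left out. The number of libraries, 3 against 4, and their spread limit these comparisons.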
